A study of Homo sapiens with 6 samples.

Results

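The BCL2 family genes examined here were 10 named members: 3 that keep cells alive (BCL2, BCL2L1 and MCL1) and 7 that promote death (BAX, BAK1, BID, BAD, BCL2L11, PMAIP1 and BBC3). Every probe whose array gene name was one of these was taken, which gave 16 probes of the 58201 probes on the array, for 10 of its 43317 gene names. All 16 passed the filter on dim probes. Of the members, 5 had 1 probe and 5 had several. A gene with several is represented by its brightest probe, and the others are given beside it.

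The BCL2 family decides whether the outer membrane of the mitochondrion stays intact. The effectors BAX and BAK1 form pores that let cytochrome c out, which starts the caspase cascade, and the survival proteins bind and hold the death proteins. The BH3-only proteins (BID, BAD, BCL2L11, PMAIP1 and BBC3) carry stress signals to this machinery, by occupying the survival proteins or by activating the effectors directly. In prostate cancer the family is known for its link to resistance to androgen withdrawal and chemotherapy.

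All samples were 22RV1, an established line of human prostate cancer that the labels describe as SPINK1 positive. Stable lines were made with the lentiviral vectors pLemiR-338-5p, pLemiR-421 or, as control, pLemiR-RFP, and all grew with puromycin at 1 µg/mL. Each of the 6 two-colour arrays paired control RNA in Cy3 with RNA of a miRNA line in Cy5, with 3 arrays for miR-338-5p (replicates 1, 2 and 3) and 3 for miR-421 (a pool, and replicates 1 and 2). What the pool contains, and whether the samples came from separate cultures or clones, is not given in the sources used here, so the SDs and p-values may measure technical spread. Without a dye swap, a dye bias of a probe enters each comparison with control.

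MicroRNAs lower the output of messenger RNAs that they pair with, mainly through the seed, bases 2 to 8 of the mature strand. The mature strands are shown because the labels name the groups by these miRNAs. The strands come from RefSeq on GRCh38.p14, with the seed in capitals. The gene of miR-338-5p lies on the minus strand with the mature bases at chr17:81125923-81125944, and that of miR-421 on the minus strand at chrX:74218392-74218414. The seeds differ.
hsa-miR-338-5p: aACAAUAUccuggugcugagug
hsa-miR-421: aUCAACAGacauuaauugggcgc

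In Cy3, 47.3% to 47.9% of gene spots were well above background on the miR-338-5p arrays and 44.3% to 44.4% on the miR-421 arrays. These shares did not overlap, although Cy3 held control RNA on every array, and the reason was not tested. In Cy5 the share was 46.8% to 48.3% and 41.9% to 47.8%, with 0 saturated spots in either dye. Across probes, the log2 ratios of any 2 miR-338-5p arrays had a Pearson correlation of 0.478 to 0.613, and those of any 2 miR-421 arrays one of 0.637 to 0.824. All 9 markers of a prostate luminal cancer line, KLK3 and KLK2 among them, were well above background in Cy3 on all 6 arrays, against 0 of 3 basal markers. Of the other lists, 2 of 3 neuroendocrine, 2 of 5 fibroblast, 3 of 4 blood and 2 of 3 endothelial markers were above background there. The blood and endothelial markers were dim, with mean log2 intensities of at most 6.43 and 6.63. The neuroendocrine and fibroblast markers reached 8.31 and 7.25. The luminal markers lay at 7.32 to 14.27, and the basal ones at 5.76 to 5.84. SPINK1, which describes the cells, gave log2 ratios of -3.04, -2.10 and -6.78 on miR-338-5p replicates 1, 2 and 3, and of -7.01, -6.68 and -6.15 on the miR-421 pool and replicates 1 and 2. The means were -3.97 ± 2.47 and -6.61 ± 0.44 (SD, n = 3 each; limma adjusted p 0.0418 and 0.00775). Without miR-338-5p replicate 3, the lowest, the former was -2.57 and still passed. Its call did not survive leaving out miR-338-5p replicate 1 (adjusted p 0.0992) or 2 (0.0596), the pool (0.0783) or miR-421 replicate 2 (0.0844). The latter was lost without miR-421 replicate 2 (0.0547).

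In both lines the members past the threshold were BH3-only genes, and they were higher. PMAIP1 rose in the miR-338-5p line, and BBC3 and the brightest BCL2L11 probe rose in the miR-421 line, by between 1.56-fold and 1.87-fold. With limma's test and a Benjamini-Hochberg adjusted p under 0.05 over all probes, 1 of 10 members was higher and 0 lower under miR-338-5p. Of all tested probes 9.00% passed there, 3.79% higher and 5.22% lower. Under miR-421, 2 of 10 members were higher and 0 lower, against 21.6% of all probes, 9.19% higher and 12.5% lower. The latter share rests on the arrays used: of all probes 5950 passed under miR-421, but 629 without replicate 2, 2973 without replicate 1 and 3409 without the pool. With all arrays, the shares of members past the threshold were near those of all probes in both lines. An unadjusted p under 0.05 was seen at 2 and 5 members, where all probes had 27.2% and 37.5%. The median log2 ratio of the members was 0.24 and 0.07, and that of all tested probes -0.0027 and 0.0015.

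**Figure D1:**
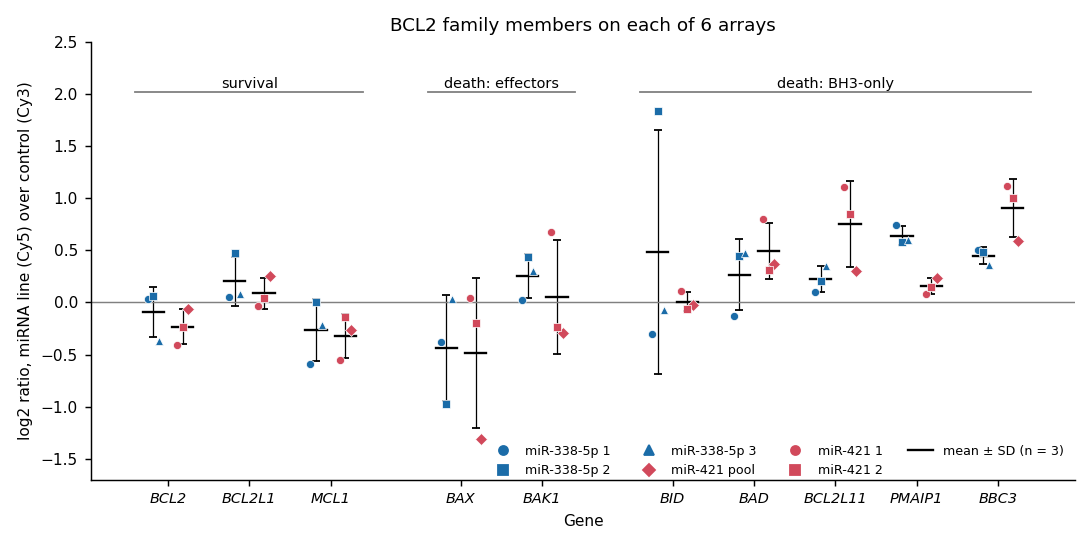
Log2 ratio of the miRNA line (Cy5) over control (Cy3) for the 10 members, on the 3 miR-338-5p arrays (blue) and the 3 miR-421 arrays (red), with black bars for the mean and SD (n = 3). PMAIP1 ran from 0.58 to 0.75 under miR-338-5p and from 0.08 to 0.24 under miR-421, and BBC3 lay above 0 on all 6.

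The survival members did not pass limma's threshold in either line (0 of 3, with an unadjusted p under 0.05 for 0 members in the miR-338-5p line and for 1, MCL1, in the other). BCL2, the founding member, is read at chr18:60790723-60790782 (hg19, minus strand, NM_000633). Its log2 ratios were 0.03, 0.06 and -0.37 on miR-338-5p replicates 1, 2 and 3. On the miR-421 pool and replicates 1 and 2 they were -0.07, -0.40 and -0.23. The groups overlapped, and miR-338-5p replicate 3 was the low array of its group. The means were -0.09 ± 0.24 and -0.24 ± 0.17 (SD, n = 3 each; limma adjusted p 0.645 and 0.17). The probe was dim (mean log2 intensity 6.43), and the size of its ratio depended on the background correction. With background subtracted the means were -0.29 and -0.71, neither past the threshold (limma adjusted p 0.612 and 0.13). A second BCL2 probe, for the transcript NM_000657, stayed between 0.02 and 0.16 on all 6 arrays.

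BCL2L1 encodes BCL-XL and, by alternative splicing, a short form that promotes death. Its probe at chr20:30253324-30253383 (minus strand) is listed for both NM_138578 and NM_001191, so the forms are not told apart. Its ratios were 0.05, 0.47 and 0.08 on the miR-338-5p arrays and 0.25, -0.04 and 0.05 on the miR-421 pool and replicates 1 and 2. Only miR-338-5p replicate 2 stood clear of the rest. The means were 0.20 ± 0.24 and 0.09 ± 0.15 (SD, n = 3 each; limma adjusted p 0.274 and 0.595). This probe was dim too (mean log2 intensity 6.51). With background subtracted its means were 0.47 and 0.29, neither past the threshold (limma adjusted p 0.252 and 0.386).

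MCL1 is a short-lived survival protein. Its probe at chr1:150547622-150547681 (minus strand) is listed for NM_021960, NM_182763 and NM_001197320, so these transcripts are not told apart. Its ratios were -0.59, 0.01 and -0.21 on the miR-338-5p arrays and -0.27, -0.55 and -0.14 on the miR-421 pool and replicates 1 and 2. It was below 0 on 5 of 6 arrays, with the lowest values on replicate 1 of either group. The means were -0.26 ± 0.30 and -0.32 ± 0.21 (SD, n = 3 each; limma adjusted p 0.257 and 0.133). The 95% interval of limma's miR-421 mean ran from -0.64 to -0.0008 before adjustment.

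The effectors BAX and BAK1 did not pass limma's threshold in either line (0 of 2, the lowest unadjusted p being 0.15). The brighter BAX probe (chr19:49464904-49464963, plus strand, NM_138764) was printed on 10 spots per array. It gave -0.38, -0.97 and 0.03 on miR-338-5p replicates 1, 2 and 3, and -1.31, 0.04 and -0.20 on the miR-421 pool and replicates 1 and 2. In each group 1 array was close to a 2-fold loss or beyond it while another lay near 0. The 10 spots of an array differed among themselves by an SD of 0.0339 to 0.0811, far less than the arrays differed. The means were -0.44 ± 0.50 and -0.49 ± 0.72 (SD, n = 3 each; limma adjusted p 0.406 and 0.284).

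The low BAX arrays were low in the Cy5 signal of the miRNA line. Normalised log2 Cy5 was 8.93 on the miR-421 pool and 9.41 on miR-338-5p replicate 2, against 10.01 to 10.43 on the other 4 arrays, while Cy3 kept to 10.24 to 10.40. The second BAX probe (chr19:49464454-49464513, NM_004324) was also lowest on these arrays, but not to the same degree. It gave -0.28 on the miR-421 pool, -0.08 on miR-338-5p replicate 2 and -0.03 to 0.12 elsewhere. This probe was dim, with a mean log2 intensity of 6.34 against 10.12 for the brighter one. How far so dim a probe could show a fall was not tested.

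BAK1, the effector that resides on mitochondria (chr6:33540585-33540644, minus strand, NM_001188), gave 0.02, 0.44 and 0.30 on the miR-338-5p arrays. On the miR-421 pool and replicates 1 and 2 it gave -0.30, 0.68 and -0.24. The miR-421 arrays thus held both the highest and the lowest values. The means were 0.25 ± 0.21 and 0.05 ± 0.55 (SD, n = 3 each; limma adjusted p 0.486 and 0.888).

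Among the BH3-only genes, PMAIP1 rose under miR-338-5p. It encodes NOXA, which binds MCL1 with preference, and its probe lies at chr18:57570691-57570750 (hg19, plus strand, NM_021127). The log2 ratios were 0.75, 0.58 and 0.60 on miR-338-5p replicates 1, 2 and 3. On the miR-421 pool and replicates 1 and 2 they were 0.24, 0.08 and 0.15. All 6 were above 0 and the groups did not overlap. The means were 0.64 ± 0.09, a 1.56-fold rise, and 0.16 ± 0.08 (SD, n = 3 each; limma adjusted p 0.0073 and 0.114). The rise was 0.43 with median centring in place of loess and then did not pass (adjusted p 0.111). In a fit of the 3 miR-338-5p arrays alone its adjusted p was 0.0501.

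BBC3 encodes PUMA, which binds all the survival proteins. Its probe lies at chr19:47724174-47724233 (minus strand, NM_014417). The ratios were 0.51, 0.48 and 0.36 on the miR-338-5p arrays, and 0.59, 1.11 and 1.01 on the miR-421 pool and replicates 1 and 2. All 6 were above 0, and the lowest miR-421 array lay just above the highest miR-338-5p array. Under miR-421 the mean was 0.90 ± 0.28, a 1.87-fold rise (SD, n = 3; limma adjusted p 0.00672). It missed the threshold without miR-421 replicate 2 (0.85, adjusted p 0.0548). Under miR-338-5p the mean of 0.45 ± 0.08, or 1.36-fold, had an adjusted p of 0.0548 (SD, n = 3; limma). That value passed in 3 of 17 alternatives, 2 of them fits that left out the pool (0.0366) or miR-421 replicate 1 (0.0403).

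BCL2L11 encodes BIM, which is spliced into forms of differing potency. The brightest of its 3 probes (chr2:111886352-111886411, plus strand, NM_207002) gave 0.10, 0.21 and 0.35 on the miR-338-5p arrays and 0.30, 1.11 and 0.85 on the miR-421 pool and replicates 1 and 2. The pool lay within the range of the miR-338-5p arrays. Under miR-421 the mean of 0.75 ± 0.41, or 1.69-fold, passed the threshold (SD, n = 3; limma adjusted p 0.0225), and under miR-338-5p the mean of 0.22 ± 0.12 did not (adjusted p 0.412). The miR-421 call was lost without replicate 1 (0.58, adjusted p 0.0661) or 2 (0.70, 0.111), and with the authors' deposited table (0.34, 0.128).

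The other BCL2L11 probes did not show a rise of this size. The brightest probe is listed for NM_207002 as its only RefSeq transcript. The probe at chr2:111925892-111925951 is listed for others, NM_138621, NM_001204108, NM_138622 and NM_138624. It gave -0.20, -0.38 and -0.70 on the miR-338-5p arrays and 0.22, -0.92 and -0.23 on the miR-421 pool and replicates 1 and 2. It was below 0 on 5 of 6 arrays, and lowest on miR-421 replicate 1, where the brightest probe was highest. Its means were -0.43 ± 0.25 and -0.31 ± 0.57 (SD, n = 3 each; limma adjusted p 0.262 and 0.341). The probe at chr2:111878705-111878764, listed for NM_207002 and NM_001204113, lay between 0.06 and 0.26 on all arrays. It was dim, with a mean log2 intensity of 6.64 against 9.25 for the brightest probe. How far so dim a probe could show a rise was not tested. The mean of the gene's 3 probes under miR-421 was 0.20 (adjusted p 0.0395).

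The control signal of the brightest BCL2L11 probe was not equal on the 6 arrays. Its normalised log2 Cy3 was 8.48, 8.83 and 8.31 on the miR-338-5p arrays and 9.72, 9.64 and 9.00 on the miR-421 pool and replicates 1 and 2. Cy5 was 8.58, 9.04 and 8.66, and 10.02, 10.75 and 9.85. In both dyes the miR-421 arrays were higher with no overlap, although the labels give the Cy3 RNA as control on every array. Its Cy3 range of 1.42 was reached by 1.09% of tested probes. The part of this in the ratio was not tested.

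BID, which caspases cut into its active form, gave 1 array unlike the rest. Its brighter probe (chr22:18218265-18218324, minus strand, NM_197966) gave -0.30, 1.83 and -0.08 on miR-338-5p replicates 1, 2 and 3. The miR-421 pool and replicates 1 and 2 gave -0.02, 0.11 and -0.06. Normalised log2 Cy5 was 9.59 on miR-338-5p replicate 2 and 7.56 to 8.07 on the other 5 arrays, with Cy3 between 7.76 and 7.96. The second BID probe (chr22:18218182-18218241) gave 1.62 on the same array and -0.35 to -0.03 elsewhere. The means were 0.48 ± 1.17 and 0.01 ± 0.09 (SD, n = 3 each; limma adjusted p 0.494 and 0.992).

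BAD, a protein that survival kinases keep inactive, was read at chr11:64037483-64037542 (minus strand, NM_004322). It gave -0.13, 0.44 and 0.48 on the miR-338-5p arrays and 0.37, 0.80 and 0.31 on the miR-421 pool and replicates 1 and 2. All arrays but miR-338-5p replicate 1 were above 0. The means were 0.26 ± 0.34 and 0.50 ± 0.27 (SD, n = 3 each; limma adjusted p 0.324 and 0.0637). Without miR-338-5p replicate 1 in the fit, the miR-421 value had an adjusted p of 0.0442. A second BAD probe (chr11:64044428-64044487) passed under miR-421 (limma adjusted p 0.0392), but in Cy3 it was not well above background on any miR-421 array. Its measured rise there was 1.17-fold, a mean log2 ratio of 0.23 (limma's 95% interval 0.09 to 0.36). A bound was formed by setting the mean Cy5 signal against a Cy3 value. Per array, this value was the higher of the probe's own Cy3 signal and the lowest signal well above background. Its mean was the probe's own mean Cy3 signal (5.96). The bound therefore equalled the measured rise and sets no lower limit to it. The call of this second probe was lost without any 1 of the 6 arrays, with adjusted p from 0.0592 to 0.134.

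**Figure D2:**
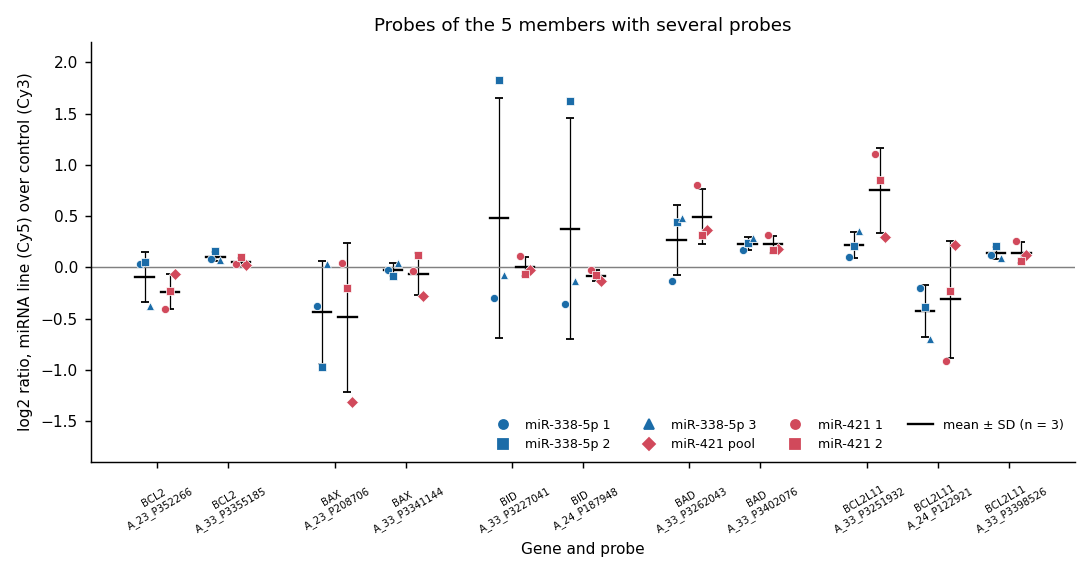
Log2 ratio of the miRNA line over control for each probe of the 5 members with several probes, by array, with the mean and SD (n = 3). Both BID probes were high on miR-338-5p replicate 2 (1.83 and 1.62), while the BCL2L11 probes went different ways under miR-421 (means of 0.75, -0.31 and 0.14).

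**Figure D3:**
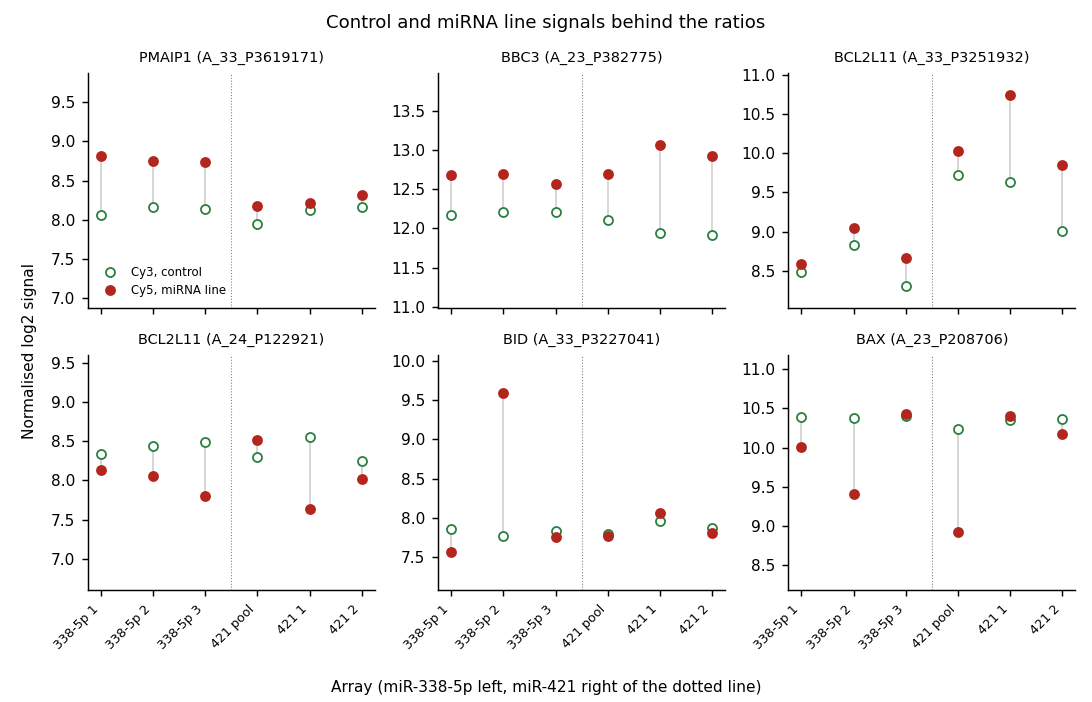
Normalised log2 signal of control (Cy3, open green) and miRNA line (Cy5, filled red) on each array for 6 member probes, each panel spanning the same number of log2 units. Cy3 ranged over 0.22 log2 units for PMAIP1 and 0.29 for BBC3, whereas Cy3 of the BCL2L11 probe A_33_P3251932 ran from 8.31 to 9.72.

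Over the member probes, Cy5 varied more between arrays than Cy3 at all 16 of 16, and the same was so of 89% of 27376 tested probes with a value on every array. The median range over the 6 arrays was 0.23 in Cy3 and 0.68 in Cy5 for the member probes, against 0.18 and 0.50 for all. Cy3 of the miR-338-5p arrays did not overlap that of the miR-421 arrays at 5 of 16 member probes, against 16.9% of all probes. These were the brightest probes of BAX, BAD, BCL2L11 and BBC3 and the second BID probe. For BBC3, Cy3 was 12.17 to 12.21 on the miR-338-5p arrays and 11.92 to 12.11 on the miR-421 arrays, while Cy5 was 12.56 to 12.69 and 12.70 to 13.06. For PMAIP1, Cy3 overlapped (8.06 to 8.17 and 7.94 to 8.16) and Cy5 did not (8.74 to 8.81 and 8.18 to 8.31).

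Survival and death members were next set against each other on each array. The mean log2 ratio of the 3 survival members minus that of the 7 death members was -0.25, -0.25 and -0.46 on miR-338-5p replicates 1, 2 and 3. It was -0.01, -0.89 and -0.37 on the miR-421 pool and replicates 1 and 2. It was below 0 on 6 of 6 arrays, nearly 0 on the pool, and the groups overlapped. The means were -0.32 ± 0.12 and -0.42 ± 0.45 (SD, n = 3 each), given with no test because members of an array are not replicates. Survival members averaged -0.05 ± 0.20 and -0.16 ± 0.16, and death members 0.27 ± 0.18 and 0.27 ± 0.29. Of the survival members, BCL2 and BCL2L1 were read at dim probes (mean log2 intensity 6.43 and 6.51). The probes standing for the death members lay at 7.90 to 12.43. The median over all tested probes was between -0.017 and 0.0062 on each array.

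The balance rested on different genes in different arrays. Without BID it was -0.31, -0.02 and -0.52 on the miR-338-5p arrays, so on replicate 2 nearly all of it came from that gene. Death members above 0 numbered 4, 6 and 6 of 7 on the miR-338-5p arrays and 4, 7 and 4 of 7 on the miR-421 pool and replicates 1 and 2. Survival members above 0 numbered 2, 3 and 1 of 3, and 1, 0 and 1 of 3. Without miR-421 replicate 1 the miR-421 balance was -0.19. With the wider family lists, 6 survival and 15 death genes, the miR-338-5p balance was -0.09 and the miR-421 balance was -0.30.

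**Figure D4:**
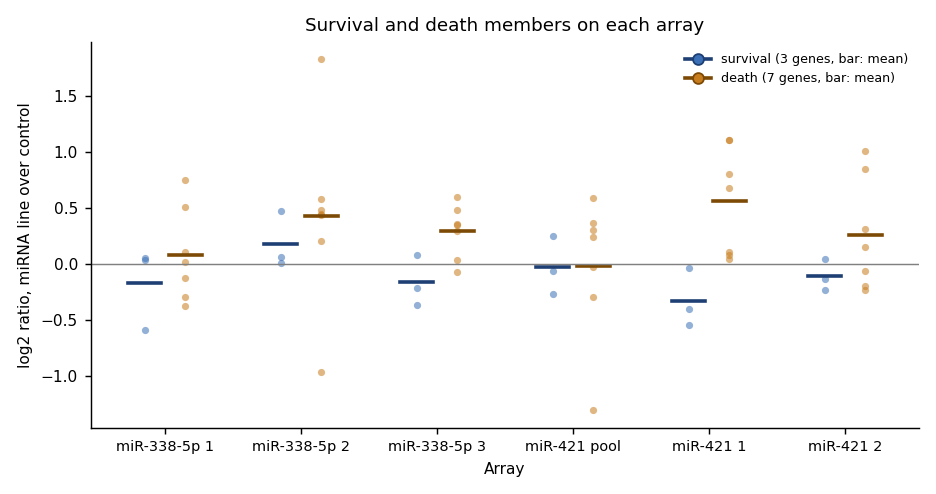
Log2 ratio over control of the 3 survival members (blue points) and 7 death members (orange points) on each array, with bars for their means. The survival mean lay below the death mean on all 6 arrays, by 0.01 on the miR-421 pool and by 0.89 on miR-421 replicate 1.

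The direct comparison asked whether the members responded differently to the 2 miRNAs. With limma's test of the difference 0 of 10 members passed, where 0.0473% of all tested probes did. An unadjusted p under 0.05 was seen at 3 members, and at 13.7% of all tested probes. PMAIP1 was 0.48 higher under miR-338-5p, with a 95% interval of 0.28 to 0.69 and an adjusted p of 0.123. BBC3 was lower under miR-338-5p by a difference of -0.45 (interval -0.82 to -0.09, limma adjusted p 0.283; its Cy3 level was 0.20 higher on the miR-338-5p arrays), and BCL2L11 by -0.53 (interval -1.05 to -0.01, adjusted p 0.357). For PMAIP1 and BBC3 the groups did not overlap. The share of all tested probes whose ratios did not overlap is not given here, so this does not set them apart from other genes. For the other 7 members the interval of the difference held 0, and it was widest for BID, from -0.88 to 1.83. The balance differed by 0.10, where its SD was 0.12 over the miR-338-5p arrays and 0.45 over the miR-421 arrays, and the groups overlapped. Without miR-421 replicate 1 the difference was -0.13.

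Promoters are shown for the 3 members that passed in a line, so that motifs of upstream regulators can be looked up in them. Each is the 250 bases before the gene's start in RefSeq (GRCh38.p14), read on the gene's strand, and capitals mark a motif match. PMAIP1 lies on the plus strand at chr18:59899746-59899995, BBC3 on the minus strand at chr19:47232668-47232917 and BCL2L11 on the plus strand at chr2:111120664-111120913.
PMAIP1: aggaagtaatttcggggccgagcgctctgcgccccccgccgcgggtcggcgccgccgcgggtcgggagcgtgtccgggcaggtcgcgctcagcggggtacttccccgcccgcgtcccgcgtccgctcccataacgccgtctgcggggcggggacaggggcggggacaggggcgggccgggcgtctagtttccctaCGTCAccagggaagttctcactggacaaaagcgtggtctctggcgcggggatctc
BBC3: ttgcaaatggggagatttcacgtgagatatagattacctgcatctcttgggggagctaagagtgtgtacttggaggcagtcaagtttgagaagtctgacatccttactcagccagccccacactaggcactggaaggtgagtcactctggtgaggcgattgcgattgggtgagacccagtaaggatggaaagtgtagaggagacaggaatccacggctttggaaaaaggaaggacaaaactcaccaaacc
BCL2L11: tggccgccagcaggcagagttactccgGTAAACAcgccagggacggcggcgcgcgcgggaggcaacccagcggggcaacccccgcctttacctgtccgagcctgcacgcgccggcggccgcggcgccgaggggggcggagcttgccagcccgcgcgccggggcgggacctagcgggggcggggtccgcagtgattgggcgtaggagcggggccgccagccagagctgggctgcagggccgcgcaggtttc

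The PMAIP1 and BCL2L11 windows held 72.8% and 76.8% G and C, and the BBC3 window 49.2%, where the median of 35116 windows was 58%. Motifs were searched on both strands in windows of this length, for 9 of the 10 members, and 4 of those searched are given here. The core TGACG of cyclic AMP response elements, which factors such as ATF4 and ATF3 read, was found in PMAIP1 on the minus strand, 55 to 51 bases before the start. It was also found in BCL2, BCL2L1, BAX and BAD, and in 21.2% of all windows. The full element TGACGTCA, which contains this core, was in 0 of 9 member windows and 1.65% of all. TGATGNAA, the composite element of ATF4 and C/EBP factors such as DDIT3, was in 0 of 9 and 3.14%. The forkhead motif GTAAACA, read by FOXO factors, was found in BCL2L11 alone, 223 to 217 bases before the start, and in 2.98% of all windows. A match is no evidence of binding.

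The wider cell death pathway was described from a list of 63 genes, of which 60 were tested. Under miR-338-5p, 6 were higher and 6 lower, or 20% of those tested, and under miR-421, 10 were higher and 11 lower, or 35%. All probes stood at 9.00% (3.79% higher, 5.22% lower) and 21.6% (9.19% higher, 12.5% lower), but a list gene was read at its brightest probe alone. The counts of each group of the list, given below, stand against these same shares. The list medians were -0.04 and 0.01. The counts moved when single arrays were left out. Under miR-338-5p the 12 became 6, 5 and 6 without miR-338-5p replicates 1, 2 and 3, and 19 and 7 without miR-421 replicates 1 and 2. Under miR-421 the 21 became 12 and 7 without miR-421 replicates 1 and 2. They also moved with the processing. Under miR-338-5p the count was 5 with background subtracted, 4 in a fit of the group's own arrays, 3 with the authors' deposited table and 3 with the ratio of the image software. Under miR-421 it was 12 with median centring and 13 with the authors' deposited table. In the difference of the lines 0 of 60 passed in limma, and 13 had an unadjusted p under 0.05, against 13.7% of all tested probes.

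Of the transcription factors upstream of BH3-only genes, 3 of 9 rose in both lines and 0 fell. The factors that rose were ATF4, ATF3 and DDIT3, which act in the cell's response to amino acid and protein folding stress. DDIT3 (CHOP) gave 2.17, 1.77 and 1.95 on the miR-338-5p arrays and 1.43, 0.90 and 1.62 on the miR-421 pool and replicates 1 and 2. Its means were 1.96 ± 0.20 and 1.32 ± 0.37 (SD, n = 3 each; limma adjusted p 0.00504 and 0.0061). ATF3 rose by 2.14 ± 0.23 and 1.79 ± 0.43 (limma adjusted p 0.00559 and 0.00421) and stood at 0.91 under miR-421 as a mean of its probes, past the threshold in both lines. ATF4 rose by 0.98 ± 0.11 and 0.80 ± 0.23 (adjusted p 0.00831 and 0.00712). With the image software's ratio ATF4 was 0.81 and 0.56 and missed the threshold (limma adjusted p 0.0692 and 0.0878), as it did under miR-421 without replicate 2 (0.71, 0.0525).

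FOXO3, a factor that induces BCL2L11 and BBC3, gave 0.74, 1.00 and 0.12 on the miR-338-5p arrays and 0.38, -0.96 and 0.23 on the miR-421 pool and replicates 1 and 2. On miR-421 replicate 1 it was low, and neither mean passed (0.62 ± 0.45 and -0.11 ± 0.74, SD, n = 3 each; limma adjusted p 0.238 and 0.819). Of the regulators that act on family proteins, TRIB3, a pseudokinase that binds AKT, rose by 1.73 ± 0.30 and 2.13 ± 0.27 (limma adjusted p 0.00589 and 0.00242). ATF3, DDIT3 and TRIB3 passed in all 17 alternatives in both lines.

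Among the mitochondrial partners, most of those past the threshold were lower. Of 10 tested, 0 were higher and 3 lower under miR-338-5p, and 1 was higher and 4 lower under miR-421. CYCS, which encodes cytochrome c, gave -0.32, -0.63 and -0.55 on the miR-338-5p arrays and -1.005, -0.85 and -0.94 on the miR-421 pool and replicates 1 and 2. All 6 values were below 0 and the miR-421 arrays were lower with no overlap, though the difference did not pass (limma adjusted p 0.192). The means were -0.50 ± 0.16 and -0.93 ± 0.08 (SD, n = 3 each; limma adjusted p 0.0204 and 0.00316). The miR-338-5p value was -0.04 with the authors' deposited table and -0.10 as a mean of the gene's probes, and passed with neither (limma adjusted p 0.895 and 0.313). It also missed without miR-338-5p replicate 2 (0.077) or 3 (0.0877), or without miR-421 replicate 2 (0.0549).

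VDAC3, a channel of the outer membrane, fell by 0.46 and 0.85 on the log2 scale in the 2 lines (limma adjusted p 0.0396 and 0.00607). The miR-421 values of CYCS and VDAC3 passed in all 17 alternatives, and the miR-338-5p value of VDAC3 in 6. VDAC3 there missed the threshold without any 1 of the 3 miR-338-5p arrays (adjusted p 0.0831 to 0.152) and without miR-421 replicate 2 (0.0676). ENDOG, a mitochondrial nuclease, was -0.52 ± 0.08 under miR-338-5p (limma adjusted p 0.0445) and 0.08 ± 0.30 under miR-421. That call held in 5 of 17 alternatives and was lost without any 1 miR-338-5p array (adjusted p 0.129 to 0.159), the pool (0.0828) or miR-421 replicate 2 (0.0549). In the apoptosome and caspase group, 1 of 9 was higher and 1 lower under miR-338-5p, and 0 higher and 3 lower under miR-421. DFFB, the nuclease that cuts DNA in apoptosis, fell by 0.46 and 0.73 on the log2 scale (limma adjusted p 0.0151 and 0.00317). As a mean of its probes it was -0.23 and -0.29, of which the latter passed (0.0724 and 0.025), and with the authors' deposited table neither value passed (0.271 and 0.103). Its miR-338-5p call was lost without any 1 miR-338-5p array (adjusted p 0.0512 to 0.0588).

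Among the other survival relatives, 1 of 3 was higher and 1 lower in either line. BCL2L12 fell by 0.66 and 0.69 on the log2 scale (limma adjusted p 0.0137 and 0.0068). It missed the threshold under miR-338-5p without replicate 1 (adjusted p 0.0588) or 2 (0.052) of that line, and under miR-421 without its replicate 2 (0.0525). With the authors' deposited table it was -0.47 and -0.33, neither past the threshold (limma adjusted p 0.129 and 0.164). CFLAR, which encodes the inhibitor FLIP of the death receptor arm, fell by 0.51 and 0.68 (limma adjusted p 0.0343 and 0.00975), but by 0.11 and 0.20 as a mean of its probes, which did not pass (0.287 and 0.0604). Its miR-338-5p call was lost without any 1 array other than miR-421 replicate 1 (adjusted p 0.0548 to 0.136), and its miR-421 call without miR-421 replicate 2 (0.0515). The death receptor arm had 0 higher and 1 lower of 7 under miR-338-5p, and 1 higher and 1 lower under miR-421. Of the inhibitors of apoptosis, 0 of 5 passed in limma under miR-338-5p, and 1 of 5, lower, under miR-421. Under miR-338-5p 3 of them had an unadjusted p under 0.05, where 27.2% of all tested probes did.

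The further genes of these counts were named only after their values had been seen. Under miR-421, TNFRSF10B, a TRAIL receptor, was 0.93, 1.00 and 0.91 on the pool and replicates 1 and 2 (limma adjusted p 0.0143), and on the miR-338-5p arrays 0.88, 0.16 and 0.05. The BH3-only gene BMF rose by 0.97 ± 0.31 under miR-421 (adjusted p 0.0169) and was 0.25 ± 0.40 under miR-338-5p. BNIP3, a mitophagy receptor with a BH3-like domain, rose by 0.50 ± 0.33 under miR-421 (adjusted p 0.0374). These 2 made up the group of other effectors and BH3-only genes past the threshold, 2 of 8 under miR-421 and 0 of 8 under miR-338-5p. Under miR-338-5p 3 of the 8 had an unadjusted p under 0.05 in limma, where 27.2% of all tested probes did. DIABLO, which blocks inhibitors of apoptosis, rose by 0.86 ± 0.57 under miR-421 (limma adjusted p 0.0314), and OPA1 and MTCH2 fell by 0.61 and 0.42. Also under miR-421, CASP6 fell by 0.43 and BIRC2 by 0.67 on the log2 scale (limma adjusted p 0.0487 and 0.0259). CASP9 rose by 0.53 ± 0.22 under miR-338-5p (adjusted p 0.0354). BCL2L2, which encodes the survival protein BCL-w, rose by 0.56 and 0.35 in the 2 lines (limma adjusted p 0.00831 and 0.0124), but by 0.35 and 0.24 with median centring, when neither passed (0.128 and 0.225). Among the regulators, PIM1 rose by 0.42 and FBXW7 fell by 0.50 under miR-421 (limma adjusted p 0.0269 and 0.0186). Each of these miR-421 calls was lost without at least 1 of the arrays, while the log2 ratios moved by less than 1.5 times. TNFRSF10B, for example, stayed at 0.95, 0.92 and 0.97 without the pool, replicate 1 and replicate 2. Without miR-421 replicate 2, the 11 genes named here with a miR-421 call did not pass (limma adjusted p 0.0664 to 0.157), and without replicate 1, 9 of those 11 missed (0.0529 to 0.173), BNIP3 and BCL2L2 being the exceptions. TNFRSF10B, BNIP3, OPA1, CASP6 and PIM1 also missed without the pool (adjusted p 0.0506 to 0.141). BNIP3, DIABLO, CASP6 and PIM1 missed without at least 1 miR-338-5p array as well (adjusted p 0.0503 to 0.0773). DIABLO was 0.40 as a mean of its probes and 0.23 with the authors' deposited table, neither past the threshold (limma adjusted p 0.0621 and 0.326). CASP9 missed without any 1 miR-338-5p array (adjusted p 0.0507 to 0.138), the pool (0.0523) or miR-421 replicate 2 (0.0696). It was 0.33 with median centring (0.203), and missed with background subtracted (0.0602) and with the authors' deposited table (0.0743). With median centring BNIP3, OPA1, MTCH2, CASP6, BIRC2, FBXW7 and PIM1 missed under miR-421 (limma adjusted p 0.0521 to 0.194). MTCH2, CASP6, FBXW7 and PIM1 also missed there with the authors' deposited table (0.0537 to 0.107).

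**Figure D5:**
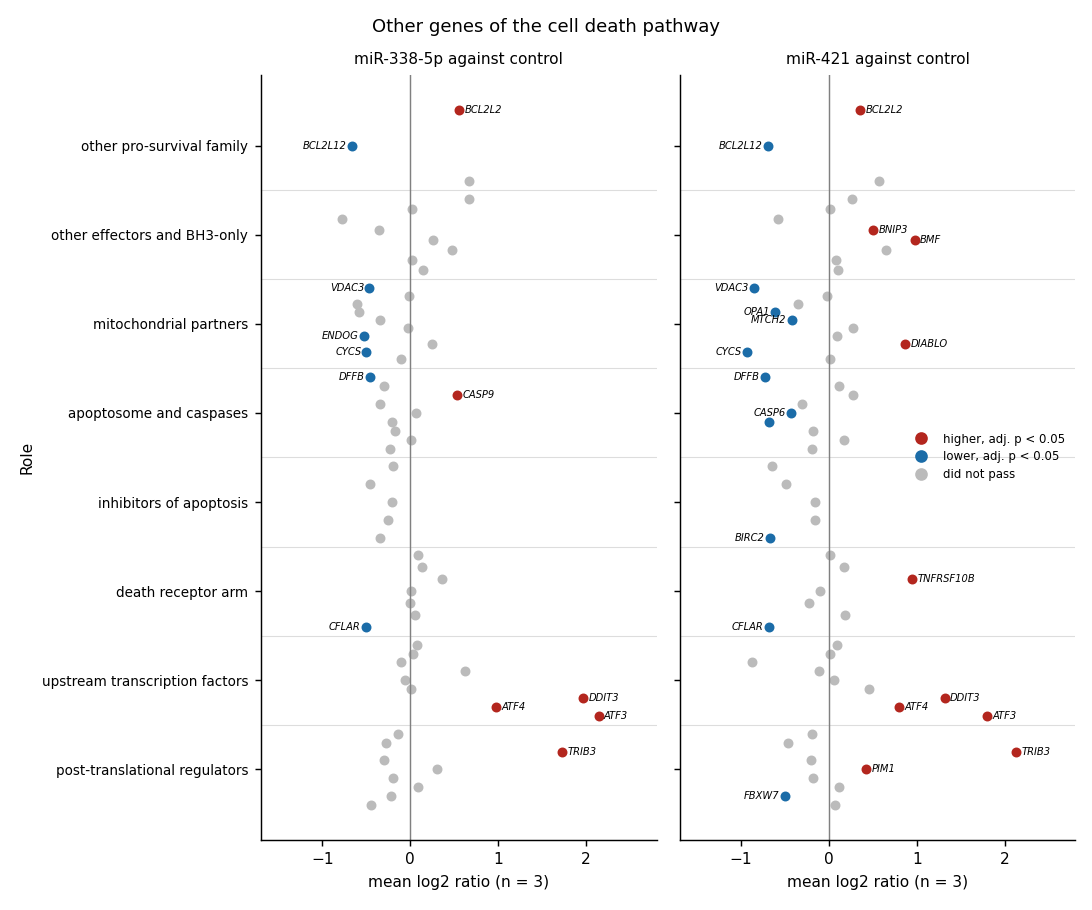
Mean log2 ratio over control (n = 3) of the 60 tested pathway genes by role, in the miR-338-5p line (left) and the miR-421 line (right), with genes past limma's adjusted threshold in red (higher) or blue (lower), most of them named. ATF3, DDIT3, ATF4 and TRIB3 lay at 0.80 or above in both lines.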

How the data were processed

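RNA of 6 samples was hybridised on 2-colour arrays on 1 slide. Per the file headers, the authors read the scans with Feature Extraction 11.5.1.1. The deposited intensity values used were each spot's mean brightness and its median local background per dye, not normalized. The deposited log10 ratio, per the file headers, had been background-subtracted and dye-normalized by that software. The authors' deposited table gave 1 log2 ratio per gene name and array (Cy5 over Cy3), normalized in a way not given in the sources used here. Both served as alternatives. Probe coordinates are on hg19, per the file headers. No annotation of that build was used here, so exons and UTRs are not stated.

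Spot intensities were corrected by normexp (offset 50) and normalized by loess within arrays with control spots at weight 0. Outlier spots were left out and spots of a probe averaged. A probe was kept if at least 3 of 6 arrays showed it well above background in Cy3 or Cy5 (27503 of 58201). Levels of 1 dye were taken after Aquantile. In R 4.3.3 with limma 3.58.1, all 6 arrays entered 1 fit with a mean per group. Both means were tested against 0 and against each other, two-sided, with Benjamini-Hochberg adjustment over probes at 0.05. Whether the Cy3 controls were 1 culture or several, the labels do not say. If 1, a test against 0 holds no spread between control cultures. Precision is limited by the number of arrays. Of the member probes, 15 of 16 had an accession found in RefSeq's gene table (GRCh38.p14), all with the array's symbol.

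The members and the gene lists were chosen with earlier results of these data known. All members were named. Of the pathway list, the 3 largest rises and falls past the threshold with 1 sign on all arrays of the group were named, and SPINK1, DDIT3, ATF4 and FOXO3 always. Some genes of the lists and 1 motif are not reported here, though the lists' counts hold them. Alternatives covered background correction, normalization, starting values, the filter, outlier spots, the variance model, the arrays fitted, each array left out, probes per gene, the family lists and a block for the replicate number. The fit was tested on simulated data.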

Additional observations from a re-analysis of the deposited data

Results flagged for a closer look

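On the miR-421 pool the brighter BAX probe (A_23_P208706) had a normalised log2 Cy3 signal of 10.24, below the 10.35 to 10.40 of the other 5 arrays. The gap made up 0.709 of the range over the 6 arrays. The Cy3 signals of 16 member probes were looked at this way, and chance marks about 1 in 20 such groups.

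BNIP3 was below 0 on all 3 miR-338-5p arrays (-0.29, -0.32 and -0.46) and above 0 on all 3 miR-421 arrays (0.79, 0.14 and 0.57). The difference of -0.85, miR-338-5p minus miR-421, was not past the threshold in limma (adjusted p 0.149). The gene was named after its values had been seen.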

How the results depend on the processing

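The cause of a change was not tested unless stated. The miR-338-5p count of members past the threshold (1) became 2 without background correction, 0 with median centring and 0 in a fit of the group's own arrays, where degrees of freedom are fewer. It lay between 1 and 2 when single arrays were left out. The miR-421 count (2) became 1 with the group's own arrays and 1 with the authors' table, and lay between 0 and 3 when single arrays were left out. It was 0 without miR-421 replicate 2 and 3, BAD included, without miR-338-5p replicate 1. The count for the difference was 0 in every alternative run, also with the replicate block (0). The numbers do not pair the samples: same-numbered arrays deviated with r of -0.14 and -0.21, only 2 numbers are shared, and the block left 1 residual degree of freedom. The survival minus death value under miR-338-5p (-0.32) became -0.088 with the wider lists. PMAIP1 under miR-338-5p passed in 15 of 17 alternatives (0.43 to 0.87), BBC3 under miR-421 in 16 (0.80 to 1.06) and BCL2L11 under miR-421 in 13 (0.20 to 0.98). No value past the threshold changed sign. Over all probes the miR-338-5p count (2476) ranged from 214 with the group's own arrays upward, and the miR-421 count (5950) from 629 without miR-421 replicate 2, so a call rests on how many other probes pass. Dim probes such as the second BAD probe and those of BCL2 and BCL2L1 are limited by signal over background. The miR-421 value of the second BAD probe, 0.23, ranged from 0.18 to 1.52.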
